A study of Mus musculus with 12 samples.

Results

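A set of 8 genes of the circadian clock was followed over all libraries of a mouse study of swimming and colitis-associated cancer: the activators Arntl, Clock, Npas2 and Rora, the repressor Nfil3, and the PAR bZIP factors Dbp, Tef and Hlf. The 8 genes were taken by symbol from 18514 genes in the count and FPKM tables, and all 8 were found there and passed the filter on low counts, as did 15484 genes in all. In part they were chosen by measured values, the log2 fold changes of these same libraries: Arntl, Dbp and Tef were already known to pass the cutoffs between Model_Swim and Model. The contrasts of Model_Swim with Model and of Model with Ctrl are therefore given as descriptions of these genes, without tests.

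The tissue was colorectal tissue of male C57BL/6 mice, bought at 4 weeks of age and kept under a light/dark cycle, in 4 groups of 3 libraries. Ctrl mice drank ordinary water and did not swim, and Ctrl_Swim mice drank ordinary water and swam. Model mice were given 1 intraperitoneal dose of azoxymethane (AOM), a colon carcinogen, at 10 mg/kg, followed by 3 cycles of 7 days of 2% dextran sulfate sodium (DSS), which injures the colonic epithelium, in their water. Model_Swim mice were given the same AOM and DSS and swam. Swimming was built up to 90 min per day, took place at 10 am, began 2 months before AOM or ordinary water was started and went on to the end, while mice that did not swim were put in the same container with shallow water. The hour at which the tissue was taken, which the level of a clock gene depends on, is not given in the sources used here. The labels do not say that each library is 1 mouse, so that the spread between libraries may be partly technical.

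The clock is a transcriptional loop that runs in nearly every cell, colon epithelium included. ARNTL (also called BMAL1) pairs with CLOCK or with its paralog NPAS2, and the pair binds E-boxes and drives the genes of its own repressors (the PER, CRY and REV-ERB proteins) and of DBP. RORA activates, and the REV-ERB proteins NR1D1 and NR1D2 repress, genes with ROR elements, among them Arntl and Nfil3. DBP, TEF and HLF are transcription factors of the PAR bZIP family that activate genes through D-boxes, and NFIL3 represses through the same D-boxes. In a running clock the ROR-driven genes and the E-box-driven genes peak at opposite times of day.

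Windows from 250 bases before to 50 bases after RefSeq start sites (build GRCm38.p6) were searched on both strands for 5 short motifs. Windows of any other length and those of a chromosome that holds none of the 8 genes were left out. The matches in the 8 genes are shown because their letters are those that the activators just described can bind. Capitals mark the matched letters, and each stretch is 30 bases read 5′ to 3′ on the strand of its gene.
Arntl, ROR element core, chr7:113207529-113207558, plus strand: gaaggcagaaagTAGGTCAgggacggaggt
Nfil3, ROR element core read from the opposite strand, chr13:52981034-52981063, minus strand: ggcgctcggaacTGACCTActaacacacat
Tef, E-box, chr15:81802534-81802563, plus strand: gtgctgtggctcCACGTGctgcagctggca
Tef, E-box at a second start site, chr15:81811264-81811293, plus strand: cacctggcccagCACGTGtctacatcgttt
The ROR element core TAGGTCA lay 30 to 36 bases after a start site of Arntl and 12 to 6 bases before that of Nfil3, in exons annotated as untranslated in GENCODE in both cases. The E-box CACGTG lay 127 to 122 bases before the upstream start site of Tef, where GENCODE annotates an untranslated exon of a longer Tef transcript and the gene Gm17597, and 138 to 133 bases before the inner start site, in an intron. Over all 32851 windows searched, 2.61% held TAGGTCA and 7.15% held CACGTG. The core TGGGTCA (3.98% of windows) and the D-box forms TTATGTAA (0.938%) and TTACGTAA (0.119%) were in none of the 12 windows of the 8 genes. A match of letters is a description of the window and not a binding site, and no match says only that these letters are not in these windows.

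Each library held 17256953 to 19451055 counts, so that 3 counts corresponded to 0.153 to 0.172 CPM, the count scaled to library size, and no pair of replicates agreed within sampling noise (chi-square per degree of freedom of 7.47 to 114). The defining colon markers Epcam, Cdx2 and Slc26a3 were present in all 12 libraries. Model 1 and Model 3 stood apart: the 23 genes listed for pancreatic acinar cells summed to 54831 CPM in Model 1 and 26662 CPM in Model 3, against 483 CPM in Model 2 and 213 to 733 CPM in the other 9 libraries. By the mean log2 level of 10 of these genes, Ctrl_Swim 2, Ctrl_Swim 4 and all Model_Swim libraries lay on a low side (0.0178% to 0.0342% of the mean of Model 1 and Model 3) and all Ctrl libraries, Ctrl_Swim 3 and Model 2 on a higher side (0.141% to 0.244%). The labels give no sequencing run. Since every Model library lay on one side and every Model_Swim library on the other, this division and swimming cannot be told apart in that contrast.

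Apart from Clock and Rora, the 8 genes fell into 2 sets with opposite profiles over the groups. Clock had its highest mean in Model and its lowest in Ctrl_Swim but differed less. Rora followed neither set, with its lowest mean in Ctrl and its highest in Model. Arntl, Npas2 and Nfil3 had their highest mean in Model and their lowest in Ctrl_Swim, and Dbp, Tef and Hlf had their highest mean in Ctrl_Swim and their lowest in Model. Levels are given below as FPKM, which are per length of transcript and so can be set side by side between genes. They lack the further scaling between libraries that the CPM have, so that overlap can differ between FPKM and CPM. Differences are log2 fold changes with their standard error (SE), fitted by edgeR to the counts of all 12 libraries, and a gene is said to have passed the cutoffs at an adjusted p under 0.05 with a fold over 2 or under 0.5. In bulk tissue such as this, fewer cells of a type and less RNA per cell cannot be told apart.

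**Figure D1:**
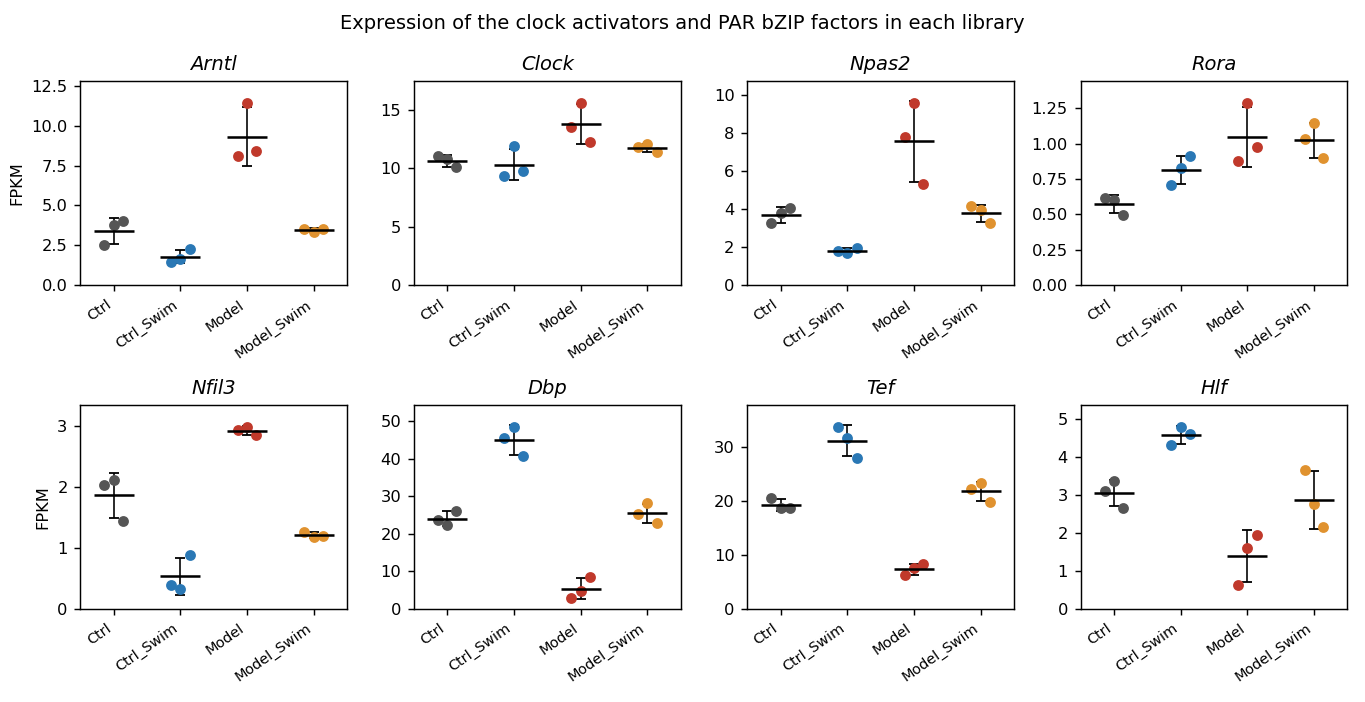
FPKM of each of the 8 genes by group, with 1 panel per gene, a point for each of 3 libraries, a bar at the mean and whiskers of 1 SD. Model lies highest for Arntl, Npas2 and Nfil3 and lowest for Dbp, Tef and Hlf, and Ctrl_Swim lies at the other end for all 6.

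Arntl (chr7:113178471-113314126) encodes a partner of both CLOCK and NPAS2. It stood at 2.49, 3.76 and 4.01 FPKM in Ctrl 1, 2 and 3, and at 1.47, 1.66 and 2.24 FPKM in Ctrl_Swim 2, 3 and 4. In Model 1, 2 and 3 it stood at 8.12, 11.4 and 8.41 FPKM, and in Model_Swim 1, 2 and 3 at 3.53, 3.31 and 3.53 FPKM. All 3 Model libraries were above every other library and all 3 Ctrl_Swim libraries below every other library, whereas the Model_Swim libraries lay within the range of Ctrl. Mean levels were 3.42 ± 0.816 FPKM in Ctrl, 1.79 ± 0.399 in Ctrl_Swim, 9.32 ± 1.84 in Model and 3.46 ± 0.129 in Model_Swim (SD, n = 3 each). Arntl fell in Ctrl_Swim against Ctrl, with a log2 fold change of -1.07 (SE 0.19, edgeR adjusted p = 0.0343, 2.64e-05 to 0.429 over its alternatives). In Model_Swim against Ctrl_Swim the log2 fold change was 0.98 (SE 0.19, edgeR adjusted p = 0.0197, 6.01e-05 to 0.198 over its alternatives), which passed the adjusted p but not the fold cutoff. As a description, the log2 difference was 1.33 (SE 0.18) between Model and Ctrl and -1.41 (SE 0.18) between Model_Swim and Model.

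Npas2 (chr1:39193702-39363240), the paralog that can stand in for CLOCK, had a profile like that of Arntl. Its level was 3.24, 3.78 and 4.08 FPKM in the Ctrl libraries and 1.81, 1.66 and 1.95 FPKM in the Ctrl_Swim libraries. It was 7.77, 9.58 and 5.31 FPKM in Model 1, 2 and 3, and 4.14, 3.92 and 3.27 FPKM in Model_Swim 1, 2 and 3. Again Model was above and Ctrl_Swim below all other libraries, and Ctrl and Model_Swim overlapped. Means were 3.70 ± 0.424, 1.81 ± 0.145, 7.56 ± 2.15 and 3.78 ± 0.455 FPKM in Ctrl, Ctrl_Swim, Model and Model_Swim. Npas2 fell in Ctrl_Swim against Ctrl by 1.16 on the log2 scale (SE 0.19, edgeR adjusted p = 0.0266, 8.54e-06 to 0.425 over its alternatives). It rose in Model_Swim against Ctrl_Swim, with a log2 fold change of 1.09 (SE 0.19, edgeR adjusted p = 0.0124, 1.32e-05 to 0.198 over its alternatives). The log2 difference between Model and Ctrl was 0.91 (SE 0.18), and that between Model_Swim and Model was -0.98 (SE 0.18).

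Clock (chr5:76209868-76305603), which encodes the usual partner of ARNTL, was the steadiest of the 8 genes, with a ratio of 1.68 between its highest and lowest library. Ctrl libraries held 11.0, 10.8 and 10.1 FPKM and Ctrl_Swim libraries 9.29, 11.9 and 9.79 FPKM. Model libraries held 13.5, 15.6 and 12.2 FPKM and Model_Swim libraries 11.8, 12.1 and 11.4 FPKM. Ctrl and Ctrl_Swim overlapped, and Model was above all others by a narrow margin (12.2 FPKM in Model 3 against 12.1 FPKM in Model_Swim 2). Model_Swim was above all Ctrl libraries in FPKM but overlapped them in CPM (113 to 121 against 109 to 120). The log2 fold change of Clock was -0.17 (SE 0.10, edgeR adjusted p = 0.379) in Ctrl_Swim against Ctrl and 0.21 (SE 0.10, edgeR adjusted p = 0.224) in Model_Swim against Ctrl_Swim, and neither passed. It was 0.26 (SE 0.10) between Model and Ctrl and -0.22 (SE 0.10) between Model_Swim and Model. The ratio of Clock to Npas2 FPKM was 2.91 ± 0.466 in Ctrl, 5.76 ± 1.19 in Ctrl_Swim, 1.89 ± 0.360 in Model and 3.13 ± 0.315 in Model_Swim. This ratio did not overlap between Ctrl_Swim and any other group, nor between Model and any other group.

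Rora (chr9:68653404-69388246), the nuclear receptor that activates through ROR elements, was the lowest of the 8 genes per length in Ctrl, Model and Model_Swim (Nfil3 was lower in Ctrl_Swim) and had a profile of its own. Its level was 0.617, 0.603 and 0.498 FPKM in the Ctrl libraries and 0.709, 0.827 and 0.909 FPKM in the Ctrl_Swim libraries. It was 0.879, 1.29 and 0.976 FPKM in Model 1, 2 and 3, and 1.03, 1.14 and 0.895 FPKM in Model_Swim 1, 2 and 3. Ctrl was below all 9 other libraries, and the other 3 groups overlapped one another in FPKM. In CPM, Ctrl_Swim (14.1 to 16.4) was below all libraries of Model (16.8 to 24.1) and Model_Swim (17.1 to 21.9). At 187 to 443 counts per library Rora was also among the genes with fewer counts. Neither tested comparison passed, with a log2 fold change of 0.38 (SE 0.15, edgeR adjusted p = 0.238) in Ctrl_Swim against Ctrl and 0.36 (SE 0.15, edgeR adjusted p = 0.186) in Model_Swim against Ctrl_Swim. The log2 difference was 0.75 (SE 0.15) between Model and Ctrl and -0.02 (SE 0.15) between Model_Swim and Model, where the groups overlapped.

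Nfil3 (chr13:52967209-52982878), which encodes the D-box repressor, was the gene with the most marked difference between the untreated groups. Its level was 2.04, 2.11 and 1.44 FPKM in the Ctrl libraries and 0.388, 0.322 and 0.885 FPKM in the Ctrl_Swim libraries. It was 2.94, 2.997 and 2.86 FPKM in Model 1, 2 and 3, and 1.27, 1.17 and 1.20 FPKM in Model_Swim 1, 2 and 3. All 4 groups were separate, in the order Ctrl_Swim, Model_Swim, Ctrl and Model, so that Nfil3 was the only member whose Model_Swim libraries all lay below Ctrl. Ctrl_Swim 3 held 29 counts and Ctrl_Swim 2 held 36, the lowest counts of any member. Nfil3 fell in Ctrl_Swim against Ctrl by 1.95 on the log2 scale (SE 0.29, edgeR adjusted p = 0.0210, 2.63e-08 to 0.295 over its alternatives) and was thus 3.87-fold lower. It rose in Model_Swim against Ctrl_Swim, with a log2 fold change of 1.23 (SE 0.29, edgeR adjusted p = 0.0394, 0.00114 to 0.130 over its alternatives). Without Ctrl_Swim 4, the highest of its group, these log2 fold changes were -2.47 and 1.76. The log2 difference was 0.54 (SE 0.27) between Model and Ctrl and -1.26 (SE 0.28) between Model_Swim and Model.

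Dbp (chr7:45705100-45710203), a direct E-box target of ARNTL and CLOCK and the most abundant PAR bZIP factor outside Model, had the widest range of the 8 genes, 17.3-fold between Model 1 and Ctrl_Swim 3. It stood at 23.6, 22.3 and 26.1 FPKM in the Ctrl libraries and at 45.6, 48.5 and 40.6 FPKM in the Ctrl_Swim libraries. In Model 1, 2 and 3 it stood at 2.80, 4.77 and 8.46 FPKM, and in Model_Swim 1, 2 and 3 at 25.3, 28.1 and 22.8 FPKM. Every Model library was below, and every Ctrl_Swim library above, all other libraries, and Model_Swim overlapped Ctrl. Mean levels were 24.0 ± 1.94 FPKM in Ctrl, 44.9 ± 3.998 in Ctrl_Swim, 5.34 ± 2.87 in Model and 25.4 ± 2.62 in Model_Swim. With a log2 fold change of 0.78 (SE 0.27, edgeR adjusted p = 0.191), Ctrl_Swim against Ctrl did not pass, and Model_Swim against Ctrl_Swim, at -0.80 (SE 0.27, edgeR adjusted p = 0.112), did not either. The log2 difference between Model and Ctrl was -2.28 (SE 0.29) and that between Model_Swim and Model was 2.26 (SE 0.29). Dbp shares 741 bases at its end with Sphk2, which lies on the opposite strand, and the strand setting of the counting is not given in the sources used here. Sphk2 itself had log2 differences of -0.49 (SE 0.09) between Model and Ctrl and 0.11 (SE 0.09) between Model_Swim and Model.

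Tef (chr15:81802673-81826863), the PAR bZIP factor whose windows held the E-boxes shown above, kept a narrower range than Dbp. It stood at 20.5, 18.6 and 18.7 FPKM in the Ctrl libraries and at 33.7, 31.6 and 27.9 FPKM in the Ctrl_Swim libraries. In Model 1, 2 and 3 it stood at 6.26, 7.45 and 8.23 FPKM, and in Model_Swim 1, 2 and 3 at 22.1, 23.3 and 19.7 FPKM. The groups lay as for Dbp, with Model lowest, Ctrl_Swim highest, and Ctrl and Model_Swim overlapping. Tef fell in Model_Swim against Ctrl_Swim by 0.50 on the log2 scale (SE 0.12, edgeR adjusted p = 0.0401, 0.00200 to 0.221 over its alternatives), which passed the adjusted p but not the fold cutoff. The log2 fold change of 0.57 (SE 0.12, edgeR adjusted p = 0.0553) in Ctrl_Swim against Ctrl missed the threshold. Between Model and Ctrl the log2 difference was -1.51 (SE 0.12), and between Model_Swim and Model it was 1.58 (SE 0.12).

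Hlf (chr11:90336535-90390917) was the least abundant PAR bZIP factor. Its level was 3.12, 3.36 and 2.67 FPKM in the Ctrl libraries and 4.33, 4.80 and 4.60 FPKM in the Ctrl_Swim libraries. It was 0.636, 1.59 and 1.96 FPKM in Model 1, 2 and 3, and 3.67, 2.77 and 2.16 FPKM in Model_Swim 1, 2 and 3. Model was below and Ctrl_Swim above all other libraries, with the gap between Model 3 (1.96 FPKM) and Model_Swim 3 (2.16 FPKM) the narrowest of the 3 PAR bZIP genes. The log2 fold change was 0.46 (SE 0.31, edgeR adjusted p = 0.453) in Ctrl_Swim against Ctrl and -0.65 (SE 0.31, edgeR adjusted p = 0.245) in Model_Swim against Ctrl_Swim, and neither passed. The log2 difference was -1.24 (SE 0.32) between Model and Ctrl and 1.06 (SE 0.32) between Model_Swim and Model.

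Summed over Dbp, Tef and Hlf, the PAR bZIP factors came to 46.3 ± 1.80 FPKM in Ctrl, 80.6 ± 6.47 in Ctrl_Swim, 14.1 ± 4.48 in Model and 49.96 ± 4.81 in Model_Swim. Dbp made up 51.8% ± 2.79 of this sum in Ctrl, 55.7% ± 1.30 in Ctrl_Swim and 50.9% ± 1.13 in Model_Swim, and 36.3% ± 8.36 in Model. In Model the largest share was that of Tef in Model 1 and Model 2 (64.5% and 54.0%), while Dbp had the larger share in Model 3 (45.4% against 44.2% for Tef). Hlf made up 4.83% to 11.5% of the sum over the 12 libraries.

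**Figure D2:**
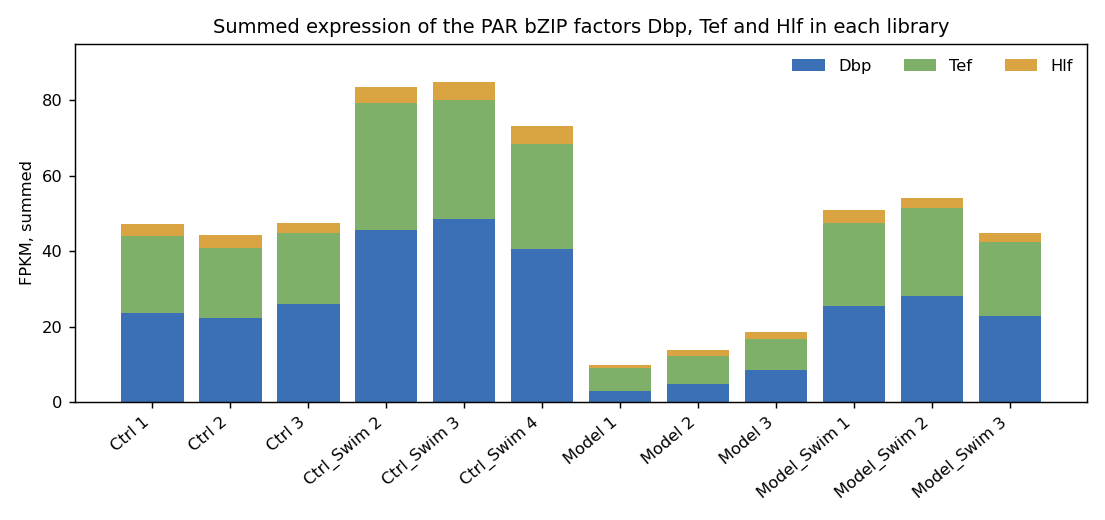
Stacked bars of the FPKM of Dbp, Tef and Hlf in each of the 12 libraries. The summed level runs from 9.70 FPKM in Model 1 to 85.0 FPKM in Ctrl_Swim 3, and Dbp and Tef make up most of every bar.

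Dbp was also set against the genes of the opposing set within each library. The ratio of Dbp to Arntl FPKM was 7.32 ± 1.92 in Ctrl, 26.1 ± 6.95 in Ctrl_Swim, 0.589 ± 0.363 in Model and 7.37 ± 1.02 in Model_Swim. Ctrl (5.92 to 9.51) and Model_Swim (6.47 to 8.48) overlapped, and the other groups were separate. The ratio of Dbp to Nfil3, the activator to the repressor of D-boxes, was 13.4 ± 4.08 in Ctrl, 105 ± 53.6 in Ctrl_Swim, 1.84 ± 1.03 in Model and 21.0 ± 2.58 in Model_Swim. Here all Model_Swim libraries (19.0 to 23.9) were above all Ctrl libraries (10.54 to 18.1). No test was made of these ratios, which combine genes chosen for their profiles.

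**Figure D3:**
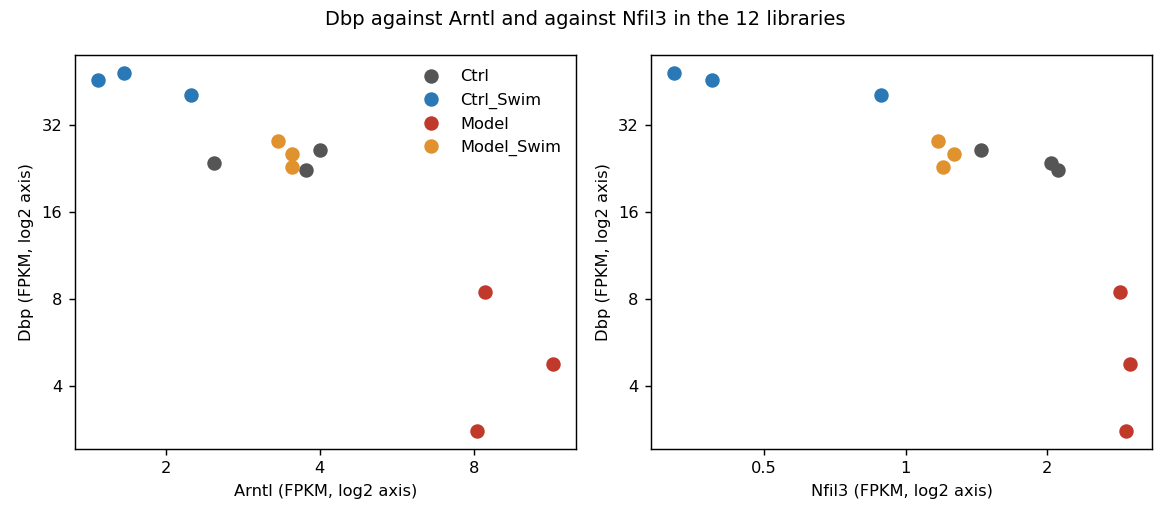
Dbp FPKM against Arntl FPKM (left) and against Nfil3 FPKM (right) in the 12 libraries, coloured by group, with both axes on a log2 scale. Ctrl_Swim lies at the upper left and Model at the lower right in both panels, and Model_Swim lies among Ctrl for Arntl and to the left of Ctrl for Nfil3.

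Swimming in untreated mice was compared as Ctrl_Swim against Ctrl, a contrast that shares its Ctrl libraries with the known contrast of Model with Ctrl. Of the 8 genes, 3 passed the cutoffs, all lower in Ctrl_Swim: Arntl, Npas2 and Nfil3, against 0.142% of all genes tested that passed as lower (0.168% in either direction). The groups did not overlap for 7 of the 8 genes on the CPM scale, Clock being the exception, against 27.4% of all genes tested. The median log2 fold change of the 8 was 0.10, and that of all genes tested was 0.000435. The calls rested on the full set of libraries: 0 of 8 passed without Ctrl 1, Ctrl 2, Ctrl 3, Ctrl_Swim 2, Ctrl_Swim 3 or Model_Swim 2, and 1 passed without Model_Swim 1. The log2 fold changes without 1 library stayed between -1.23 and -0.92 for Arntl, -1.22 and -1.07 for Npas2, and -2.47 and -1.67 for Nfil3. With Ctrl_Swim 3, the only Ctrl_Swim library on the side of Ctrl in the division by pancreatic genes, set alone against Ctrl and assumed to vary like the other groups, the log2 fold changes were -1.16 for Arntl, -1.27 for Npas2 and -2.65 for Nfil3, and Nfil3 passed (edgeR adjusted p = 0.0318).

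AOM/DSS among swimming mice was compared as Model_Swim against Ctrl_Swim, which shares its Model_Swim libraries with the known contrast of Model_Swim with Model. Here 2 of the 8 genes passed the cutoffs, Npas2 and Nfil3, both higher in Model_Swim, against 0.924% of all genes tested that passed as higher (1.00% in either direction). At the adjusted p alone 4 genes passed, with Arntl higher and Tef lower, against 5.18% of all genes. Ranges in CPM did not overlap for 7 of the 8 genes, again all but Clock, against 32.4% of all genes. The median log2 fold change of the 8 was 0.29 and that of all genes tested was -0.01. Without Ctrl_Swim 3, which leaves libraries of the low side of the division by pancreatic genes only, 0 of 8 passed, with log2 fold changes of 1.02 for Npas2 (edgeR adjusted p = 0.0586) and 0.96 for Nfil3 (edgeR adjusted p = 0.106). The count was also 0 without Model_Swim 1 or Model_Swim 2, 1 without any 1 of the Ctrl libraries, Ctrl_Swim 2 or Model_Swim 3, and 3 without Ctrl_Swim 4.

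Model against Ctrl is the contrast of AOM/DSS in mice that did not swim. Of the 8 genes, 4 passed the cutoffs, Arntl higher and Dbp, Tef and Hlf lower in Model, against 7.43% of all genes tested (6.21% higher and 1.22% lower). No overlap between the groups was seen for 8 of the 8 genes in CPM, against 44.2% of all genes. Nothing is read from these counts, since the genes were chosen with this contrast known. With Model 1 and Model 3, the libraries rich in pancreatic transcripts, left out, Model 2 alone differed from Ctrl by 1.59 for Arntl, 1.22 for Npas2, 1.01 for Rora, -2.49 for Dbp, -1.52 for Tef and -1.09 for Hlf on the log2 scale.

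Model_Swim against Model is the contrast of swimming in AOM/DSS mice. It had 3 of the 8 genes past the cutoffs, Arntl lower and Dbp and Tef higher in Model_Swim, against 0.0710% of all genes tested, and 7 of 8 without overlap in CPM (all but Rora) against 16.9% of all genes. Nothing is read from these counts either. The count was 6 without Model 3, 1 without Model_Swim 1 or Model_Swim 2, and 0 with a term for the division by pancreatic genes or for the acinar level. Log2 differences were 2.41 for Dbp, 1.55 to 1.60 for Tef and -1.84 to -1.58 for Arntl under these terms. The term for the division was set by Ctrl_Swim alone, the only group with libraries on both sides. With it, too, the division and swimming cannot be told apart in this contrast. Model_Swim against Model shares no library with Ctrl_Swim against Ctrl, and the log2 differences of the 2 contrasts of swimming can be read side by side: -1.41 and -1.07 for Arntl, -0.98 and -1.16 for Npas2, -1.26 and -1.95 for Nfil3, -0.22 and -0.17 for Clock, 2.26 and 0.78 for Dbp, 1.58 and 0.57 for Tef, 1.06 and 0.46 for Hlf, and -0.02 and 0.38 for Rora. Their signs were the same for 7 of the 8 genes, and for 44.5% of all genes tested. The difference between the 2 contrasts (the interaction of swimming with AOM/DSS) was 1.49 (SE 0.39) for Dbp and 1.01 (SE 0.17) for Tef on the log2 scale and under 0.70 in size for the other 6 genes. The interaction contains the contrast of Model_Swim with Model, which was known when the genes were chosen, so nothing is read from its counts. In the edgeR fit 0 of the 8 interactions passed, as did 0 of all genes tested (0%), 2 of the 8 were under an unadjusted p of 0.05 against 19.0% of all genes, and 2 of the 8 passed in DESeq2 and 0 in limma.

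**Figure D4:**
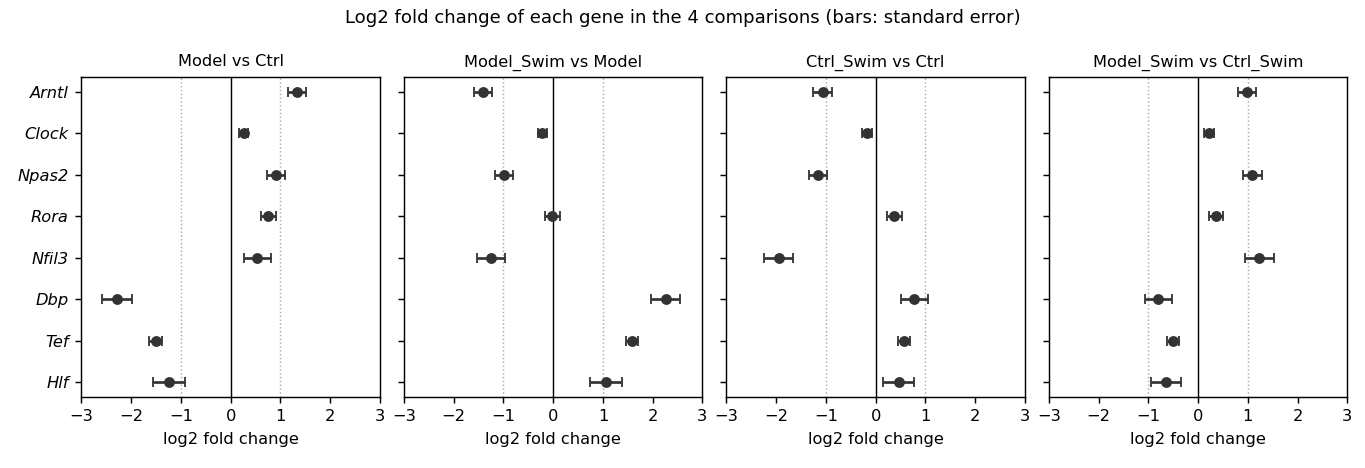
Log2 fold change of each gene in the 4 comparisons, with bars of 1 SE and dotted lines at the fold cutoff of 2. Arntl, Npas2 and Nfil3 lie right of 0 in both contrasts of AOM/DSS and left of 0 in both contrasts of swimming, and Dbp, Tef and Hlf lie on the opposite sides.

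**Figure D5:**
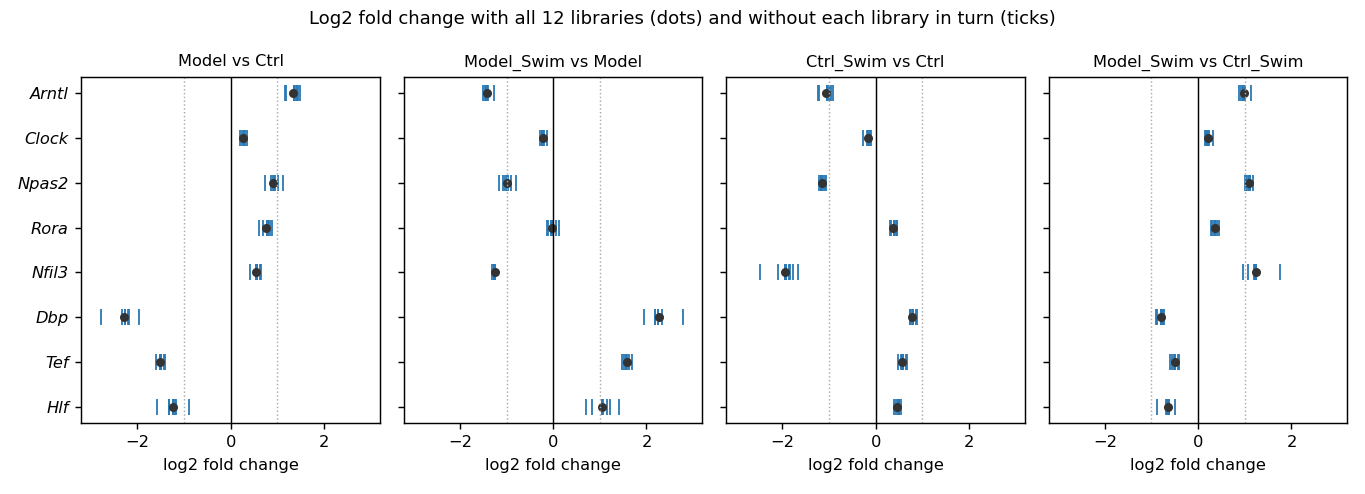
Log2 fold change of each gene with all 12 libraries (dots) and without each library in turn (ticks) in the 4 comparisons. The ticks stay on one side of 0 for every gene and comparison other than Rora in Model_Swim against Model, which runs from -0.13 to 0.13.

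Within groups Dbp and Tef varied together, and the correlation of Hlf with both was lower without the Model libraries. Taken as deviations of log2 CPM from the group means over the 12 libraries, Dbp and Tef had a Pearson r of 0.77 (Spearman rho 0.76), Dbp and Hlf 0.81 (rho 0.43), and Tef and Hlf 0.66 (rho 0.55). Arntl and Npas2 had r = 0.53 (rho 0.43). Arntl and Dbp, which lay at opposite ends between groups, had r = -0.07 within them (rho -0.20), and Arntl and Tef had r = -0.46 (rho -0.56). Over the 9 libraries without Model, a choice made after seeing the data, r was 0.77 for Dbp and Tef (rho 0.58), 0.17 for Dbp and Hlf (rho 0.07), 0.38 for Tef and Hlf (rho 0.37), 0.51 for Arntl and Npas2 (rho 0.33), -0.35 for Arntl and Dbp (rho -0.30) and -0.75 for Arntl and Tef (rho -0.80). These are descriptions over points that share their libraries, depth and any other cells in the tissue. The order of the Model libraries was the same for Dbp, Tef and Hlf, with Model 1 lowest and Model 3 highest. Variation within groups was widest for Nfil3 in Ctrl_Swim and Dbp in Model, with coefficients of variation of 57.9% and 53.8%, while the median over the 8 genes ran from 9.36% in Model_Swim to 20.1% in Model.

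Of the other genes of the clock, 3 lists are described that were drawn up with results of these data known. Among 10 repressors of the loop (the Per, Cry, Rev-erb and related genes), 2 passed the cutoffs in Model against Ctrl, both lower: Ciart, a repressor of ARNTL and CLOCK, at -2.65 (SE 0.36) on the log2 scale, and Nr1d1, at -1.25 (SE 0.16). Of all genes tested, 1.22% passed there as lower. In Model_Swim against Model 4 of the 10 passed, against 0.0710% of all genes tested, all higher: Ciart at 2.94 (SE 0.36), Nr1d1 at 1.52 (SE 0.16), Per3 at 1.07 (SE 0.13) and Nr1d2 at 1.05 (SE 0.11). In Ctrl_Swim against Ctrl 0 of the 10 passed in edgeR (6 under an unadjusted p of 0.05, against 17.6% of all genes tested, 1 in DESeq2, 0 in limma), and in Model_Swim against Ctrl_Swim 0 passed (4 under an unadjusted p of 0.05, against 22.4% of all genes tested, 0 in DESeq2 and 0 in limma). The median log2 fold change of the 10 repressors was -0.65, 0.99, 0.43 and -0.22 in Model against Ctrl, Model_Swim against Model, Ctrl_Swim against Ctrl and Model_Swim against Ctrl_Swim. Of the 10, 9 were negative in Model against Ctrl and 9 positive in Model_Swim against Model. Cry1 went the other way in both, at 0.58 (SE 0.19) and -0.56 (SE 0.19).

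Arntl2, the paralog of Arntl, which can pair with CLOCK as ARNTL does, passed as higher in Model than in Ctrl, at 2.12 (SE 0.36) on the log2 scale, from 1.65 ± 0.676 CPM in Ctrl to 7.20 ± 1.78 CPM in Model, and stood at 4.95 ± 0.812 CPM in Model_Swim. Among 15 regulators of clock proteins, Usp2, a deubiquitinase, and Cipc, an inhibitor of CLOCK, passed as lower in Model against Ctrl, at -1.29 (SE 0.24) and -1.05 (SE 0.16), against 1.22% of all genes tested. Among 18 clock-controlled output genes 1 passed in that contrast, Lonrf3, at 1.06 (SE 0.18), against 7.43% of all genes tested (6.21% as higher). In the other 3 contrasts edgeR called 0 of the 15 regulators and 0 of the 18 outputs, as did DESeq2 and limma. At an unadjusted p under 0.05 the outputs gave 7, 4 and 2 genes and the regulators 3, 0 and 4 genes in Model_Swim against Model, Ctrl_Swim against Ctrl and Model_Swim against Ctrl_Swim, where 13.6%, 17.6% and 22.4% of all genes tested were under it.

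The genes most like Arntl and Dbp over the 12 libraries were sought among 13921 genes of at least 1 CPM, by Pearson r of log2 CPM and leaving out the 8 genes themselves. For Dbp they were Ciart (r = 0.995), Nr1d2 (r = 0.98), Cipc (r = 0.973), Slc2a5 (r = 0.969) and Unc80 (r = 0.965). Ciart, Nr1d2 and Cipc belong to the clock lists, Slc2a5 is a fructose transporter and Unc80 a subunit of a sodium leak channel complex. For Arntl they were Sufu (r = 0.971), Ssh2 (r = 0.95), Traf7 (r = 0.929), E2f2 (r = 0.92) and Rasl11a (r = 0.917), of which none was in a clock list. Within groups, r with Dbp was 0.964 for Ciart and 0.722 to 0.839 for the other 4, and r with Arntl ran from 0.154 for Rasl11a to 0.823 for Traf7. Deviations of Dbp from its group means were widest in Model 1 (-0.77) and Model 3 (0.81), against -0.21 to 0.14 in the other libraries. For the genes like Dbp, r within groups was not computed without Model. Ciart stood at 7.72 ± 0.835 CPM in Ctrl, 16.0 ± 2.71 in Ctrl_Swim, 1.23 ± 0.839 in Model and 9.43 ± 1.69 in Model_Swim. Sufu, the inhibitor of Hedgehog signalling at the head of the Arntl list, differed far less than Arntl did, from 19.9 ± 0.609 CPM in Ctrl_Swim to 23.8 ± 0.0908 CPM in Model. Model lay apart from the other groups for Arntl and Dbp. Without the 2 libraries farthest from the median of the member, r ran from 0.846 to 0.982 over these 10 genes. The libraries left out were Model 2 and Model 3 for Arntl and Model 1 and Model 2 for Dbp. Since a Model library and all of Ctrl_Swim remained, these values cannot show how much of r rests on differences between groups.

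Markers of other cells also differed between the groups, not all with the profile of the 8 genes. In Model against Ctrl, 18 of 20 tested acinar genes, 13 of 18 squamous epithelial genes, 9 of 10 B cell genes, 7 of 10 T cell genes and 6 of 10 neutrophil genes passed as higher, and of 11 macrophage genes 4 passed as higher and 1 as lower. Of all genes tested, 6.21% passed there as higher and 1.22% as lower. None of the 14 colon epithelial genes passed there in edgeR (8 under an unadjusted p of 0.05, against 45.2% of all genes tested, 0 in DESeq2, 1 in limma), with summed levels of 26282 to 30050 CPM in Ctrl, 23122 to 27891 in Ctrl_Swim, 12967 to 26396 in Model and 22926 to 25748 in Model_Swim. Squamous genes summed to 88.0 to 96.9 CPM in Ctrl, 88.1 to 983 in Ctrl_Swim, 76.7 to 2271 in Model and 246 to 1406 in Model_Swim. B cell genes summed to 43.0 to 90.5 CPM in Ctrl, 59.1 to 188 in Ctrl_Swim, 175 to 207 in Model and 59.4 to 95.3 in Model_Swim, so that Model was above Ctrl and Model_Swim and overlapped Ctrl_Swim. T cell genes summed to 30.9 to 34.4 CPM in Ctrl, 35.1 to 85.4 in Ctrl_Swim, 68.4 to 105 in Model and 58.8 to 68.4 in Model_Swim. Neutrophil genes summed to 18.2 to 31.2 CPM in Ctrl, 24.9 to 35.9 in Ctrl_Swim, 30.7 to 427 in Model and 59.9 to 631 in Model_Swim. Macrophage genes summed to 445 to 461 CPM in Ctrl, 403 to 509 in Ctrl_Swim, 834 to 906 in Model and 718 to 861 in Model_Swim. For both neutrophil and macrophage genes, Model_Swim overlapped Model and lay above Ctrl.

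In Model_Swim against Model none of the tested genes of these 7 lists passed in edgeR, though 19 of 20 acinar genes and 10 of 10 B cell genes were under an unadjusted p of 0.05, against 13.6% of all genes tested, and 19 and 1 passed in DESeq2. The other 5 lists gave 0 to 2 genes under an unadjusted p of 0.05 and 0 in DESeq2, and limma called 0 in all 7. In Ctrl_Swim against Ctrl 1 acinar gene passed as lower, against 0.142% of all genes tested. In Model_Swim against Ctrl_Swim 1 neutrophil and 2 macrophage genes passed as higher, against 0.924% of all genes tested. No smooth muscle, skeletal muscle, adipocyte or enteric glia and neuron gene passed in edgeR in any of the 4 contrasts (DESeq2 called 1 skeletal muscle and 1 adipocyte gene in Model against Ctrl and 2 adipocyte genes in Model_Swim against Ctrl_Swim, and limma called 0). Under an unadjusted p of 0.05, enteric glia and neurons gave 3, 5, 6 and 4 of 10 genes and skeletal muscle 3, 0, 5 and 0. Adipocytes gave 2, 0, 0 and 4 of 10 genes, and smooth muscle 0 in each contrast. The order is Model against Ctrl, Model_Swim against Model, Ctrl_Swim against Ctrl and Model_Swim against Ctrl_Swim. Of all genes tested, 45.2%, 13.6%, 17.6% and 22.4% were under it there. The summed level of the enteric glia and neuron genes had its highest group in Ctrl_Swim and its lowest in Model, as Dbp, Tef and Hlf did, at 119 to 138 CPM in Ctrl, 160 to 189 in Ctrl_Swim, 72.9 to 123 in Model and 126 to 132 in Model_Swim. Ctrl_Swim was above all other libraries, Model was below all Model_Swim libraries and overlapped Ctrl, with Model 1 lowest and Model 3 highest, and the part of these cells in the levels of the 8 genes was not tested.

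Among defining markers of other cells, Cela2a and Myh4 were at 0 counts in at least 1 Model_Swim library, Myh4 in at least 1 Ctrl and 1 Model library as well, and Trp63 in at least 1 Ctrl_Swim library. Without Model 1 and Model 3 the acinar sum of the remaining Model library was 483 CPM, and the log2 differences between Model_Swim and that library were -1.67 for Arntl, -1.29 for Npas2, 2.47 for Dbp and 1.59 for Tef. The part of the other cells in the levels of the 8 genes was not tested further.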

How the data were processed

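Per the labels and the methods of the study, colorectal RNA was made into stranded mRNA libraries and sequenced, and the authors trimmed reads with Trimmomatic, mapped them to GRCm38.p6 with HISAT2, deposited raw counts per gene from HTSeq-count and deposited FPKM values from Cufflinks (versions and strand setting are not given in the sources used here). For the 8 genes, FPKM were a fixed multiple of each library's share of counts, so both tables hold the same measurement.

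Counts were scaled by TMM and tested in edgeR 4.0.16 (R 4.3.3) by the quasi-likelihood F test with all 12 libraries in 1 fit, after a filter at a minimum count of 10, with Benjamini-Hochberg adjustment over 15484 genes. SE is the log2 fold change divided by the root of F. CPM were TMM-scaled, with a prior count of 2 on the log2 scale. Alternatives included DESeq2 1.42.0 and limma 3.58.1 on log2(FPKM + 1) or log2(FPKM + 0.1). The edgeR, DESeq2 and limma fits were tested on simulated counts, and the other steps were not.

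The members and lists were chosen with earlier results of these data known. By rule, the text names all 8 members, up to 4 called genes of each clock list with the lowest adjusted p, and the 5 genes most like Arntl and like Dbp. Cry1 is named outside this rule, for its sign opposite to that of the other repressors. Of 18514 symbols, 17574 were found in RefSeq. Same-numbered libraries were not paired. Intervals and floors cover counting error only.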

Additional observations from a re-analysis of the deposited data

How the results depend on the processing

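Of 960 log2 fold changes of the 8 genes under the alternatives, 844 kept their direction and their side of the cutoffs, 75 lost a call, 26 gained one and 15 changed sign, and the causes were not tested. The signs of Arntl, Nfil3, Dbp, Tef and Hlf held under all 24 alternatives in each of the 4 comparisons. Between Model and Ctrl the number of genes past the cutoffs was 4, and 3 to 6 over the alternatives. Between Model_Swim and Model it was 3, with 1 to 6 when 1 library was left out, 5 in DESeq2, 1 with the groups compared alone, and 0 with the acinar level as a covariate or a term for the division by pancreatic genes. Between Ctrl_Swim and Ctrl it was 3, with 0 to 3 when 1 library was left out, 0 with the term for the division or in limma on log2(FPKM + 1), with or without its filter, and 1 in limma on log2(FPKM + 0.1) or, in an alternative chosen after seeing the data, without Ctrl_Swim 2 and Ctrl_Swim 4. Between Model_Swim and Ctrl_Swim it was 2, with 0 to 3 when 1 library was left out, 4 at the adjusted p alone, 1 with the groups compared alone, and 0 with the term for the division, in limma on log2(FPKM + 1), with or without its filter, or without Ctrl_Swim 2 and Ctrl_Swim 4. For the interaction it was 0, with 0 to 2 when 1 library was left out (Tef without Ctrl_Swim 2, Dbp and Tef without Model 3), and 2 in DESeq2 or, again chosen after seeing the data, without Model 1 and Model 3.

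Libraries share only a number: same-numbered pairs had deviations correlated at -0.26 to 0.56, over 0.1 in 4 of 15 pairs, and 3 of 12 libraries correlated best with their own number. With the replicate number as a block, 4, 4, 1, 1 and 0 genes passed in Model against Ctrl, Model_Swim against Model, Ctrl_Swim against Ctrl, Model_Swim against Ctrl_Swim and the interaction.

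The values that changed sign were small. Rora in Model_Swim against Model was 0.00029 without the filter and 0.0045 with the term for the division, and ran from -0.13 to 0.13 when 1 library was left out (0.13 without Model 2, 0.059 without Model_Swim 3). Clock was 0.084 in Model_Swim against Model and 0.021 in Ctrl_Swim against Ctrl with the term for the division, and 0.037 in the latter without Ctrl_Swim 2 and Ctrl_Swim 4. In the interaction Npas2 was -0.12 with the acinar covariate, -0.072 in limma on log2(FPKM + 1), with or without its filter, and -0.14 without Model 1 and Model 3, and ran from -0.026 (without Model 3) to 0.34 when 1 library was left out. Clock there was 0.063 with the term for the division and ran from -0.13 to 0.035 when 1 library was left out, being above 0 without Ctrl_Swim 3 or Model 2. In limma on log2(FPKM + 0.1) the median of all genes shifted to 0.11 in Ctrl_Swim against Ctrl and to -0.11 in the interaction. Depth was lowest for Nfil3 in Ctrl_Swim, at 29 to 80 counts per library, where the coefficient of variation of its FPKM between libraries was 57.9%.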
